A study of Homo sapiens with 4 samples.

Results

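The genes described here are 10 genes of fatty acid oxidation and lipid droplets, chosen by symbol from a table of 48162 genes: PLIN2, PLIN3, HILPDA, ANGPTL4, CPT1A, ACADVL, HADHA, PDK4, PPARA and PPARD. Each symbol matched 1 row of the table. RNA was sequenced from MDA-MB-231, an established human line from a triple-negative breast cancer, after 24 h with vehicle (2 libraries) or with 10 µM MGH-CP1 (2 libraries). MGH-CP1 is, by the series title, a compound that blocks the palmitoylation of TEAD, the family of DNA-binding partners of YAP and TAZ. All 4 libraries came from the same line grown in DMEM with serum, a single cell line in culture, and no genotype or other agent separates the groups.

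Cells store surplus fatty acids as triacylglycerol in lipid droplets, whose surface is coated by perilipins, and release them again through lipases. For oxidation, a fatty acid is activated to an acyl-CoA, carried into the mitochondrion through the carnitine shuttle, which CPT1 controls, and shortened by dehydrogenases and the trifunctional protein. PPAR nuclear receptors bind fatty acids and their derivatives, and PLIN2, PDK4, CPT1A, ANGPTL4 and HILPDA are among their classic target genes in many tissues.

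Levels are the FPKM values of the authors' table (fragments scaled to gene length and to the reads of the library), so levels of different genes can be compared per length. Changes are differences of log2(FPKM + 1), MGH-CP1 minus vehicle, from limma over the 11790 genes whose mean level reached 1 FPKM. A gene was called at a Benjamini-Hochberg adjusted p under 0.05. Between 16790645 and 18485701 reads per library fell on listed genes. The 10 genes had between 124 (HILPDA) and 7558 (ACADVL) reads per library. The labels do not state separate cultures for the replicates; the p-values therefore reflect how far these libraries differ, and that spread may be technical. With 2 libraries against 2, an exact two-sided permutation test of a single gene cannot go below p = 0.333, so calls rest on the model across all genes. A bulk library averages over the culture, and fewer cells with a transcript cannot be told apart from less of it per cell.

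Of the 10 genes, 7 rose with MGH-CP1, none fell, and 3 were not called. Among all genes tested, 20.0% were called higher and 25.1% lower. The median log2 change was 0.35 over the 10 genes and -0.02 over all genes tested. The 10 genes were chosen with earlier results of these data known, so these shares and medians are not a test of the set. All 10 passed the filter on low values. PDK4 and PLIN2 rose more than 2-fold in FPKM, PPARA and PLIN3 rose by 1.72-fold and 1.53-fold, and the mitochondrial enzymes HADHA and ACADVL and the secreted lipase inhibitor ANGPTL4 rose by 1.26-fold to 1.29-fold. CPT1A, PPARD and HILPDA were close to their vehicle means. These fold values are ratios of mean FPKM, whereas log2 changes on the log2(FPKM + 1) scale understate the change of genes at low levels.

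**Figure D1:**
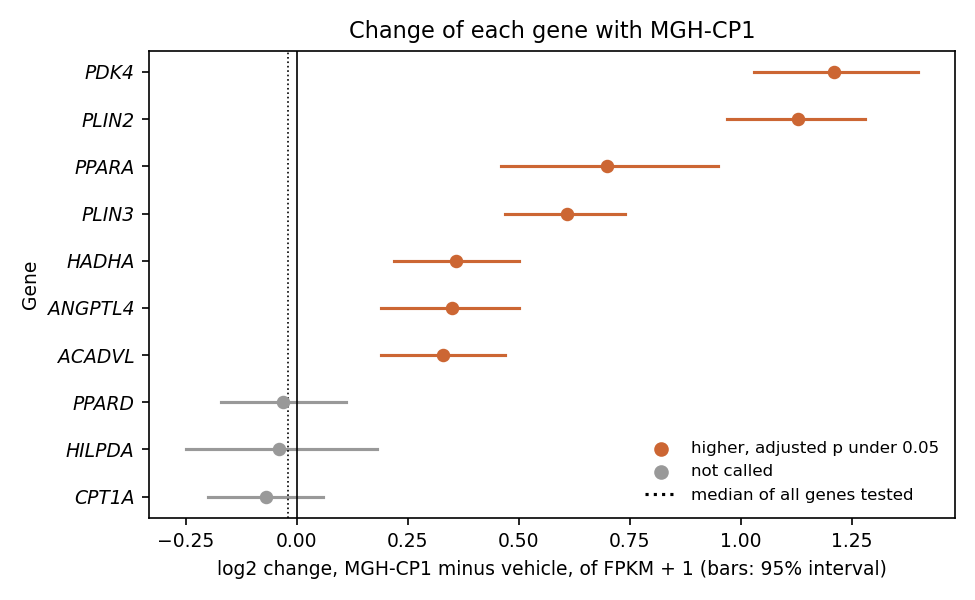
Log2 change of FPKM + 1 with MGH-CP1 against vehicle for the 10 genes. Points are limma estimates, bars their 95% intervals, and the dotted line is the median of all genes tested; PDK4 and PLIN2 lie above 1, and the intervals of PPARD, HILPDA and CPT1A include 0.

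The promoters of the genes with the largest rises, PLIN2 and PDK4, and of ANGPTL4, a secreted product of the same target group, are shown. ANGPTL4 rose less, with a log2 change of 0.35 against 1.13 for PLIN2 and 1.21 for PDK4. PPARA, PLIN3 and, narrowly, HADHA (log2 change 0.36) rose more than ANGPTL4, and their windows, which held no match, are not printed. Each printed sequence is the 250 bases before the RefSeq start on GRCh38.p14, 5′ to 3′ on the gene's strand. Capitals mark matches, on either strand, to ACGTG, the core bound by hypoxia-inducible factors. They lie at PLIN2 chr9:19127493-19127742 (minus strand), PDK4 chr7:95596517-95596766 (minus strand) and ANGPTL4 chr19:8363905-8364154 (plus strand).
PLIN2: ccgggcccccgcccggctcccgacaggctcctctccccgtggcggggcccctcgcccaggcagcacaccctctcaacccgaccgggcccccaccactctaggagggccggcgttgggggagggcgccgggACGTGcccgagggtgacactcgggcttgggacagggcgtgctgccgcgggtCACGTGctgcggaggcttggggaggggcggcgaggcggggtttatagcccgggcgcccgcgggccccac
PDK4: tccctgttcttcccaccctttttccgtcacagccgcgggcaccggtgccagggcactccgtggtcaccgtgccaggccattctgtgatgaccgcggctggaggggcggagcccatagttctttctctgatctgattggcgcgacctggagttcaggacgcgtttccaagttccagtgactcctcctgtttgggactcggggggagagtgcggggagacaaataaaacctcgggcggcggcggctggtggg
ANGPTL4: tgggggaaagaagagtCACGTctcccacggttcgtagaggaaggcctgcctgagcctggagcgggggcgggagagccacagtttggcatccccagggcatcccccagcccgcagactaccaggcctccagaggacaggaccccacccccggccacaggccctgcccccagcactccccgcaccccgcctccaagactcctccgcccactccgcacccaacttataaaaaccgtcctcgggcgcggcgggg

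Windows were found for 9 of the 10 genes (11 windows, since ACADVL and PPARA have more than 1). PLIN2 held ACGTG at position -120 and, as the overlapping palindrome, at -69 and -68 before the start. ANGPTL4 held it at -234, and a window of ACADVL at -20. Of all 35116 promoter windows, 18.5% held ACGTG. No window of the 9 genes held the PPAR response element, a direct repeat of the next motif (0.0171% of all windows), its half-site AGGTCA (12.1%), the TEAD core GGAATG (11.9%) or the FOXO core GTAAACA (2.98%). These are matches of letters in a short window and say nothing of binding.

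The lipid droplet coat genes were among the most abundant of the set and rose strongly. PLIN2, the perilipin that coats droplets in most non-adipose cells, stood at 95.7 and 87.4 FPKM in vehicle and at 207 and 195 with MGH-CP1. Both treated libraries held more than 2 times the level of either vehicle library, and the groups did not overlap. Its log2 change was 1.13 ± 0.07 (SE; limma, adjusted p = 4.19e-05), from a mean of 91.6 ± 5.87 to 201 ± 8.56 FPKM (SD, n = 2 each). PLIN2 (ENSG00000147872) lies on hg19 chromosome 9, 19108373 to 19149288, minus strand, and only 0.628% of genes tested had a larger log2 change.

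PLIN3, a broadly expressed perilipin that moves from the cytosol to growing droplets, stood at 103 and 96.8 FPKM in vehicle and at 155 and 149.6 with MGH-CP1. The groups did not overlap, and the rise was smaller than that of PLIN2 in log2 terms, at 0.61 ± 0.06 (limma, adjusted p = 2.39e-04). PLIN3 (ENSG00000105355) lies on hg19 chromosome 19, 4838353 to 4867780, minus strand. The order of the perilipins turned over: the ratio of PLIN2 to PLIN3 was 0.934 and 0.903 with vehicle and 1.34 and 1.30 after treatment. PLIN2 thus ranked 3 of the 10 genes by level in both vehicle libraries and 1 in both treated ones, ahead of ACADVL. The other perilipins were barely detected: PLIN1, PLIN4 and PLIN5, which mark fat, muscle and other oxidative tissues, stayed at or below 0.294 FPKM in every library.

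HILPDA, a small hypoxia-inducible droplet protein that inhibits triacylglycerol lipase, stood at 6.08 and 5.39 FPKM in vehicle and at 5.74 and 5.38 with MGH-CP1. The groups overlapped, and the log2 change of -0.04 was not called (limma, adjusted p = 0.769; 95% interval -0.25 to 0.18). Its hg19 interval (chromosome 7, 128095903 to 128098472, plus strand) lies within that of METTL2B on the same strand, which averaged 11.2 FPKM, so its reads are uncertain. ANGPTL4, a secreted protein that inhibits lipoprotein lipase, stood at 21.8 and 21.9 FPKM in vehicle and at 29.3 and 26.8 with MGH-CP1. Both treated libraries were above both vehicle libraries, with a log2 change of 0.35 ± 0.07 (limma, adjusted p = 0.00476). The ANGPTL4 call was lost without MGH-CP1 replicate 1 (log2 change 0.28; limma, adjusted p = 0.0541, the highest over 12 alternatives, the lowest being 0.00171).

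**Figure D2:**
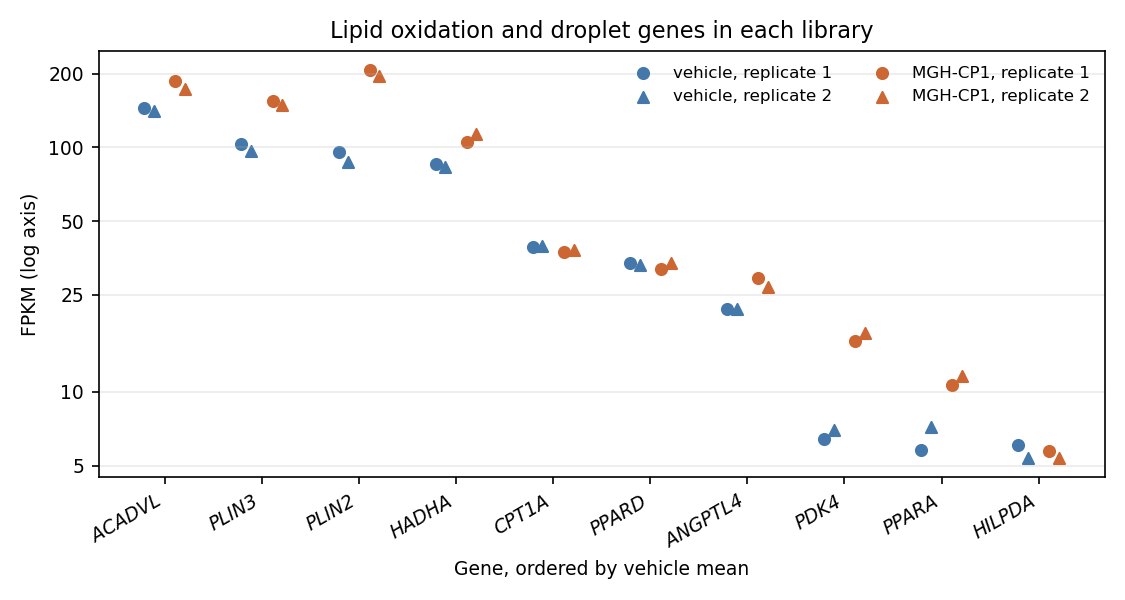
FPKM of each gene in each of the 4 libraries, on a log axis, ordered by the vehicle mean (circles replicate 1, triangles replicate 2). Orange treated points lie above blue vehicle points most clearly for PLIN2 and PDK4. They lie just below them for CPT1A, which was not called, and overlap them for PPARD and HILPDA. How often the groups separate among all genes tested was not counted.

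Among the oxidation enzymes, the entry step did not rise while 2 enzymes of the mitochondrial spiral did. CPT1A, the outer-membrane carnitine palmitoyltransferase that sets the rate of fatty acid entry, stood at 39.3 and 39.7 FPKM in vehicle and at 37.2 and 38.1 with MGH-CP1. The treated values lay just below the vehicle values, by less than the test could call (log2 change -0.07; 95% interval -0.20 to 0.06; limma, adjusted p = 0.338). CPT1A was the main isoform, with 90.4% to 93.0% of the summed FPKM of CPT1A, CPT1B and CPT1C in every library.

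ACADVL, the very long-chain acyl-CoA dehydrogenase that begins the spiral, stood at 145 and 141 FPKM in vehicle and at 186 and 174 with MGH-CP1. The groups did not overlap, with a log2 change of 0.33 ± 0.06 (limma, adjusted p = 0.00397). Without MGH-CP1 replicate 1 the ACADVL call was lost (log2 change 0.28; limma, adjusted p = 0.0541, the highest over 12 alternatives, the lowest being 2.91e-04). DLG4 overlaps it on the opposite strand at 6.05 FPKM, well under the level of ACADVL. ACADVL had the highest level of the 10 genes in vehicle and the second highest with MGH-CP1.

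HADHA, the alpha subunit of the trifunctional protein, which carries out later steps of the spiral on long chains, stood at 85.7 and 83.1 FPKM in vehicle and at 105 and 113 with MGH-CP1. Both treated libraries were higher than both vehicle libraries, by 0.36 ± 0.06 on the log2 scale (limma, adjusted p = 0.00257). HADHB, the beta subunit, starts 307 bp from HADHA on the opposite strand (RefSeq, GRCh38.p14) and stood at 25.4 and 26.0 against 31.6 and 30.3 FPKM. It also rose (log2 change 0.26; limma, adjusted p = 0.00986), a call lost without MGH-CP1 replicate 1 (log2 change 0.23). The ratio of HADHA to HADHB was 3.37 and 3.20 in vehicle and 3.32 and 3.71 with MGH-CP1, and the groups overlapped. The intervals of both genes overlap in the authors' table, and the use of strand in counting is not given in the sources used here, so reads in the overlap cannot be assigned with certainty.

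PDK4, the kinase that inactivates pyruvate dehydrogenase and so spares glucose when fat is burned, had the largest change of the set. It stood at 6.40 and 6.96 FPKM in vehicle and at 16.1 and 17.5 with MGH-CP1. The treated libraries were more than 2 times as high as the vehicle libraries, without overlap, and the 4 values rested on 418 to 1060 reads. The mean went from 6.68 ± 0.398 to 16.8 ± 0.960 FPKM, a 2.51-fold rise (log2 change 1.21 ± 0.08; limma, adjusted p = 5.32e-05). PDK4 (ENSG00000004799) lies on hg19 chromosome 7, 95212811 to 95225803, minus strand.

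PDK4 became a larger part of its family. Its share of the summed FPKM of PDK1 to PDK4 was 19.3% and 20.1% in vehicle and 33.1% and 34.8% with MGH-CP1. PDK2, a broadly expressed isoform, rose from 5.26 ± 0.182 to 8.37 ± 0.496 FPKM, whereas PDK1, the hypoxia-inducible isoform, stood at 13.0 in both vehicle libraries and at 13.6 and 13.2 with MGH-CP1 (limma, adjusted p = 0.623). The opposing phosphatase gene PDP1 also rose, from 34.3 ± 3.07 to 56.8 ± 1.12 FPKM (log2 change 0.71 ± 0.07). Of the 13 genes listed for control of pyruvate dehydrogenase, 3 rose and 2 fell, with a median log2 change of 0.04. The largest fall called was that of DLAT, the E2 subunit of the complex, from 31.2 ± 0.0860 to 25.9 ± 0.544 FPKM. Without vehicle replicate 2, with no filter or with median-of-ratios scaling 1 gene of this list fell. No fall in it was called once either MGH-CP1 library was left out (DLAT: limma, adjusted p = 0.0907 without replicate 1 and 0.0552 without replicate 2, the lowest over 12 alternatives being 0.00649).

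The receptor genes differed. PPARA, the receptor best known for inducing oxidation genes in liver, stood at 5.80 and 7.16 FPKM in vehicle and at 10.7 and 11.6 with MGH-CP1. The vehicle replicates differed more from each other than the treated ones did, yet both lay below the treated libraries (log2 change 0.70 ± 0.10; limma, adjusted p = 0.00165). PPARD, the widely expressed family member, stood at 33.6 and 33.1 FPKM in vehicle and at 31.7 and 33.7 with MGH-CP1. Its groups overlapped (log2 change -0.03; 95% interval -0.17 to 0.11; limma, adjusted p = 0.721).

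The ratio of PPARA to PPARD went from 0.173 and 0.216 in vehicle to 0.336 and 0.346 with MGH-CP1, so PPARD remained the more abundant transcript in every library. PPARG, the adipogenic family member, stood at 12.2 and 12.9 FPKM in vehicle and at 13.5 in both treated libraries (limma, adjusted p = 0.291). PPARA supplied 11.2% and 13.5% of the summed FPKM of the 3 receptors in vehicle and 19.1% and 19.8% with MGH-CP1. PPARA (ENSG00000186951) lies on hg19 chromosome 22, 46546424 to 46639653, plus strand.

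**Figure D3:**
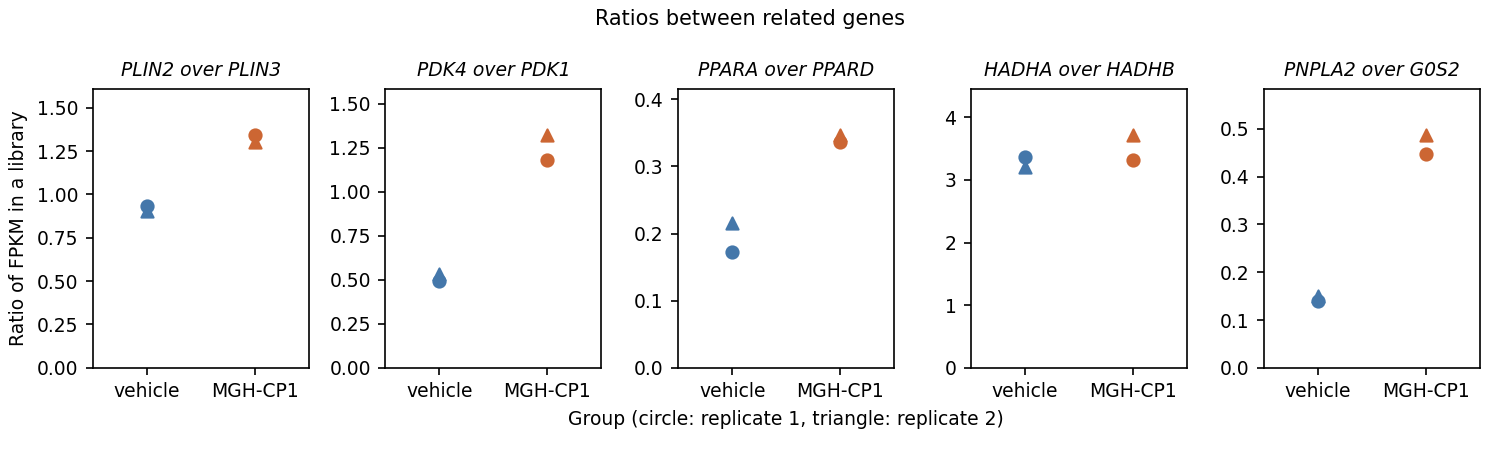
Ratios of FPKM between related genes within each library (circles replicate 1, triangles replicate 2; axes start at 0). PLIN2 to PLIN3, PDK4 to PDK1, PPARA to PPARD and PNPLA2 to G0S2 are higher in both treated libraries, while HADHA to HADHB overlaps between groups.

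The other genes of the pathway were read from 9 lists by role, 160 genes of which 125 were tested. Of these 40 rose and 15 fell, that is 32.0% and 12.0% of them, where 20.0% and 25.1% of all genes tested did so. The median log2 change was 0.14. The lists too were chosen with earlier results of these data known, so these shares are not a test of them. The number that fell was 8 without either MGH-CP1 library in turn.

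Uptake and activation of fatty acids had the largest share of rises of the 9 lists, 10 of 13 tested genes, with 1 fall and a median of 0.33. SLC27A1, a fatty acid transport protein with acyl-CoA synthetase activity, stood at 8.52 and 8.21 FPKM in vehicle and at 18.1 and 18.9 with MGH-CP1 (log2 change 1.06 ± 0.07). ACSL1, a long-chain acyl-CoA synthetase, went from 11.0 ± 0.300 to 21.2 ± 0.712 FPKM. In both genes the treated libraries lay far above the vehicle libraries. The scavenger receptor gene CD36 and the adipocyte gene FABP4 were listed at 0 in all 4 libraries. The single fall was FABP5, a cytosolic fatty acid carrier, from 5.57 ± 1.04 to 3.82 ± 0.597 FPKM (limma, adjusted p = 0.0359). FABP5 missed the threshold under 6 of 11 alternatives, among them those that left out vehicle replicate 1 or MGH-CP1 replicate 1 (limma, adjusted p from 0.00429 to 0.178). The number of rises was 6 without MGH-CP1 replicate 2.

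Peroxisomes shorten very long and branched chains, and 8 of 15 tested genes of peroxisomal oxidation rose and none fell, with a median of 0.30. ACOX2, an acyl-CoA oxidase for branched chains, went from 1.39 ± 0.269 to 2.74 ± 0.140 FPKM. Its groups did not overlap (log2 change 0.65 ± 0.13; limma, adjusted p = 0.00532), on 49 to 117 reads. ACOX2 missed the threshold when all genes were kept regardless of level (limma, adjusted p = 0.0525, against 0.00158 to 0.0357 in the other 10 alternatives). With no filter, and likewise without MGH-CP1 replicate 1, 5 genes of this list rose.

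The remaining genes of mitochondrial oxidation were mixed. Of 19 tested, 6 rose and 2 fell, with a median of 0.08. ACADS, the short-chain dehydrogenase, went from 8.25 ± 0.652 to 12.5 ± 0.356 FPKM, and ETFDH, which passes the electrons of acyl-CoA dehydrogenases to the respiratory chain, from 5.38 ± 0.610 to 8.16 ± 0.742 FPKM. HADH, the dehydrogenase for medium and short chains, fell from 21.4 ± 0.0356 to 16.2 ± 0.00265 FPKM (log2 change -0.38 ± 0.06; limma, adjusted p = 0.00211). PPID overlaps ETFDH on the opposite strand at 11.0 FPKM, and ETFDH missed the threshold when low genes were kept (limma, adjusted p = 0.0507, against 5.31e-04 to 0.0410 in the other 11 alternatives). The number of falls was 1 with no filter and 1 without MGH-CP1 replicate 2.

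In the carnitine shuttle and its malonyl-CoA control, 2 of 14 tested genes rose and 2 fell, with a median of -0.07. CRAT, the carnitine acetyltransferase, stood at 35.6 and 31.6 FPKM in vehicle and at 49.8 and 51.2 with MGH-CP1, and the groups did not overlap (log2 change 0.58 ± 0.07; limma, adjusted p = 6.85e-04). It overlaps PPP2R4 on the opposite strand, at 107 FPKM, so the CRAT level is uncertain. The other 3 calls were narrow. CPT2, the inner-membrane carnitine palmitoyltransferase, rose from 2.77 ± 0.0836 to 3.65 ± 0.224 FPKM, but C1orf123 overlaps it on the opposite strand at 11.2 FPKM, so its level is uncertain too. PRKAG1, a subunit of AMP-activated kinase, fell from 15.3 ± 0.246 to 12.8 ± 0.756 FPKM, with MLL2 overlapping it on the same strand at 7.73 FPKM. SLC25A20, the carnitine-acylcarnitine carrier, fell from 6.11 ± 0.00985 to 5.03 ± 0.106 FPKM (limma, adjusted p = 0.0491), a call that held in 3 of 12 alternatives and in none that left out 1 of the 4 libraries (limma, adjusted p from 0.0358 to 0.214). The CPT2 call (limma, adjusted p = 0.0429 with all 4 libraries) held in 5 of 11 alternatives and was lost without any 1 of the 4 libraries. The PRKAG1 call (limma, adjusted p = 0.0283) held in 7 of 12. It was lost with no filter and without vehicle replicate 2, MGH-CP1 replicate 1 or MGH-CP1 replicate 2, among others. With single libraries left out, the log2 change was 0.25 to 0.35 for CPT2 and -0.29 to -0.18 for PRKAG1. Without either MGH-CP1 library or without vehicle replicate 2, no gene of this list was called lower, and without any single library 1 was called higher.

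In the list of lipases and their regulators, 3 of 8 tested genes rose and 2 fell, with a median of 0.20. Among the called genes, the rises were in lipase genes and the falls in regulators of the droplet lipase. Not every tested lipase gene was called. PNPLA2, the triacylglycerol lipase of droplets, stood at 29.6 and 26.6 FPKM in vehicle and at 42.5 and 41.9 with MGH-CP1 (log2 change 0.57 ± 0.07; limma, adjusted p = 5.98e-04). G0S2, an inhibitor of that lipase, stood at 212 and 177 FPKM in vehicle and at 94.9 and 86.3 with MGH-CP1 (log2 change -1.09 ± 0.09; limma, adjusted p = 1.52e-04). Neither gene's groups overlapped, and the ratio of PNPLA2 to G0S2 went from 0.140 and 0.150 to 0.448 and 0.486. ABHD5, which activates the same lipase and was singled out after its values were seen, also fell, from 19.3 ± 0.625 to 11.5 ± 0.159 FPKM. ANO10 overlaps it on the opposite strand at 19.0 FPKM. The ratio of ABHD5 to PNPLA2 went from 0.638 and 0.744 in vehicle to 0.268 and 0.277 with MGH-CP1. LIPG, the endothelial lipase gene, went from 2.39 ± 0.220 to 5.56 ± 0.191 FPKM. LIPE, the hormone-sensitive lipase gene, was below the limit for testing. It stood at 1.08 and 1.11 FPKM in vehicle and lower, at 0.470 and 0.448, with MGH-CP1. With no filter, 3 genes of this list fell.

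Of 10 tested genes of droplet coat and biogenesis, 3 rose and 1 fell, with a median of 0.17. TMEM159, which encodes a droplet assembly factor that acts with seipin, went from 18.8 ± 0.870 to 29.1 ± 0.300 FPKM and METTL7A, a droplet-associated protein gene, from 2.59 ± 0.247 to 4.42 ± 0.152 FPKM. AUP1, a droplet protein of the ubiquitin system, fell from 36.2 ± 0.829 to 26.9 ± 1.36 FPKM. With median-of-ratios scaling, and likewise with voom on recovered reads, 5 genes of this list rose. HTRA2 overlaps AUP1 on the opposite strand at 10.1 FPKM.

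Triacylglycerol synthesis had 2 rises and 2 falls among 15 tested genes, with a median of 0.08. LPIN3, a phosphatidate phosphatase, went from 4.41 ± 0.0974 to 9.10 ± 0.0314 FPKM (log2 change 0.90 ± 0.08), and AGPAT5, a lysophosphatidate acyltransferase, fell from 15.8 ± 0.574 to 9.22 ± 0.601 FPKM. LPIN2 went from 20.9 ± 1.19 to 25.7 ± 1.01 FPKM, a call lost with no filter and without MGH-CP1 replicate 2 (limma, adjusted p from 0.00151 to 0.102 over 12 alternatives). The number of rises was 4 without vehicle replicate 1, and 1 with no filter and 1 without MGH-CP1 replicate 2.

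PPAR partners, coregulators and further target genes had 3 rises and 3 falls among 19 tested, with a median of 0.10. VLDLR, a lipoprotein receptor gene, went from 9.51 ± 0.155 to 17.0 ± 0.477 FPKM, and NCOA3, a nuclear receptor coactivator, from 11.7 ± 1.11 to 17.6 ± 0.488 FPKM. PPRC1, a coactivator related to PGC-1, fell from 17.5 ± 0.382 to 10.8 ± 0.594 FPKM. PPARGC1A, which encodes PGC-1α itself, was at 0.274 to 0.541 FPKM and was not tested. Its relative PPARGC1B, not tested either, stood at 0.671 and 0.654 FPKM in vehicle and at 0.252 and 0.245 with MGH-CP1. Without either MGH-CP1 library 1 gene fell, as it did in limma without the variance trend, and with voom 6 rose.

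**Figure D4:**
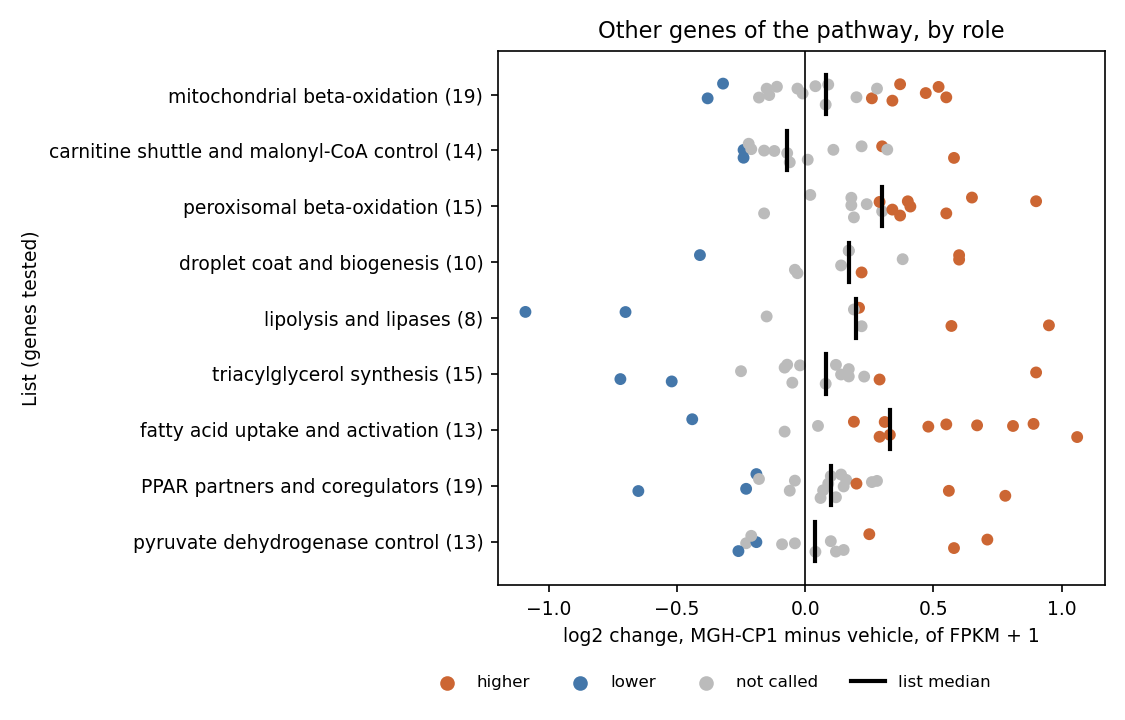
Log2 change of FPKM + 1 for every tested gene of the 9 role lists (number tested in brackets; vertical jitter only separates points), with the list median as a black bar. Uptake and peroxisomal genes lie mostly to the right of 0, and the lipase list holds both the most negative point, G0S2, and a rise close to 1, LIPG.

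The genes whose profile over the 4 libraries lay nearest to that of PDK4, by Euclidean distance of centred log2(FPKM + 1) values, were CSPG4 (distance 0.038), RAB27B (0.071), SREBF1 (0.073), GOLGA7B (0.078) and KLHL24 (0.080). SREBF1, which encodes the lipid synthesis regulator SREBP-1, stood at 29.3 and 31.6 FPKM in vehicle and at 72.8 and 73.5 with MGH-CP1. With only 2 groups, this likeness says little more than that their changes were of the same size.

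Reads from the mitochondrial genome were 0.676% and 0.645% of the vehicle libraries and 1.81% and 1.54% of the treated ones. With totals taken outside that genome, the same 7 genes of the set were called higher and the log2 changes of PDK4 and PLIN2 were 1.23 and 1.14. Of all genes tested, 2495 were then called higher and 2836 lower, against 2355 and 2956 with the full totals. Of 8 adipocyte markers none averaged 1 FPKM, and ADIPOQ, LEP and FABP4 were at 0, and 6 of the 8 also belong to the role lists. Their summed level was 1.39 and 1.41 FPKM in vehicle and 1.06 and 1.05 with MGH-CP1, and LIPE made up most of it in vehicle. Without LIPE the sum was 0.315 and 0.300 FPKM in vehicle and 0.588 and 0.598 with MGH-CP1, higher in the treated libraries, as PLIN1 and PLIN4 were; the part of these markers in the results was not tested. Summed fibroblast markers reached at most 7.59 FPKM, immune markers at 3.58 to 3.96 and endothelial markers at 0.469 to 0.938, with ranges that overlapped between groups. For the line itself, the 5 mesenchymal markers summed to 1244 and 1252 FPKM in vehicle and to 968 and 993 with MGH-CP1, with 2 called higher (VIM and CD44) and 2 lower (AXL and CAV1); their part in the results was not tested. VIM, CD44, AXL and CAV1 were at 147 FPKM or more in every library, and SPARC was at 0.453 or less. Of the 6 luminal and epithelial markers, ESR1 and PGR were at or near 0, while EPCAM reached 9.95. ERBB3 was called higher, from a mean of 1.18 to 2.45 FPKM, and GATA3 lower, from 4.59 to 2.78. CDH1, at means of 0.505 in vehicle and 0.827 with MGH-CP1, was below the limit for testing. The part of these 6 in the results was not tested.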

How the data were processed

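Polyadenylated RNA of 4 MDA-MB-231 libraries, 2 per group, was measured by RNA-seq. The authors deposited gene-level FPKM values with gene lengths in 1 table. Per the submitters' processing notes, CASAVA 1.8 and STAR were used with hg19; not given in the sources used here: the STAR version, the counter, the annotation release and strand use. FPKM times length gave whole reads (within 0.001) for 100.0% of values, so 1 read on a gene of 1000 bases was worth 0.0541 to 0.0596 FPKM. Replicates differed by more than sampling alone gives (median chi-square per gene 1.78 in vehicle and 1.05 with MGH-CP1, against 0.455).

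Changes were tested with limma 3.58.1 (R 4.3.3) on log2(FPKM + 1), with variance trend, over all genes averaging at least 1 FPKM, and adjusted by Benjamini-Hochberg over all 11790. The text names the 10 genes, for each of 9 role lists the 2 other called genes with the largest rise and the 1 with the largest fall, and the 5 genes nearest to the member with the largest change. A gene that this rule picks is not reported here. HADHB, ABHD5, PDK1, PPARG and SLC25A20 were added after their values were seen. Also named outside the rule were CD36, FABP4, LIPE, PPARGC1A, PPARGC1B, PLIN1, PLIN4, PLIN5, CPT1B and CPT1C, with overlapping genes and cell type markers. Members and lists were chosen with earlier results of these data known. The 12 alternatives were another pseudocount (0.1), no filter or one at 5 FPKM, 2 other scalings, no variance trend, voom on the recovered reads, a replicate block and leaving out each library. On simulated data with 2 libraries a group, the share of false calls was above the nominal rate of the adjustment. Far fewer genes changed in that simulation than were called here, so the size of that share cannot be carried over. Adjusted p-values are to be read as less certain than their size states, above all near the threshold. Promoter windows came from RefSeq (GRCh38.p14), matched by symbol; HILPDA had none there.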

Additional observations from a re-analysis of the deposited data

How the results depend on the processing

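Across the 12 alternatives, 115 of 120 results for the 10 genes kept their direction and their side of the threshold. The exceptions were the calls of ANGPTL4 and ACADVL, both lost without MGH-CP1 replicate 1, and 3 changes of sign in genes that were not called. HILPDA was at 0.04 without vehicle replicate 1 and at 0.00 without MGH-CP1 replicate 2 (range -0.11 to 0.04 over single libraries left out), and PPARD at 0.01 without MGH-CP1 replicate 1 (range -0.07 to 0.01). With single libraries left out, 5 to 7 of the 10 genes, 1460 to 2556 of all genes and 28 to 44 role-list genes rose, and 8 to 15 role-list genes fell. With no filter, 1568 of all genes rose, against 2355 with it. The cause was not tested. Over all genes chosen for naming, 508 of 546 results were kept, 35 lost their call and 3 changed sign. Where 1 library was left out, the lone sample of its group was assumed to vary like the others.

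Samples with the same replicate number did not deviate together (correlation 0.05), so the numbers were not taken as pairs. With the replicate block, 7 of the 10 genes rose and 0 fell, against 2453 and 3036 of all genes and 42 and 14 of the role lists. HILPDA had the fewest reads of the 10 genes, 124 to 154 per library, and PPARA the widest 95% interval of the change, 0.46 to 0.95.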
